A study of Drosophila melanogaster with 16 samples.

Results

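The baseline transcriptome of S2 cells was read from the libraries of cells soaked with dsRNA against firefly luciferase, a gene that flies lack, which serve as the control of an RNA interference experiment. These are 3 of the 16 samples of the series, and they were chosen by their label alone, so no measured value picked them. The study asked which transcripts the RNA-binding protein Imp holds, and its knockdown experiment paired these controls with cells given dsRNA against imp, which are not compared here. All 3 control libraries came from S2 cells with no transgene, grown at 26 °C in serum-containing Schneider's medium. The cells were soaked with luciferase dsRNA at 40 μg/ml in serum-free medium, after which serum-containing medium was added. For daily boosts the medium was removed and dsRNA in serum-free medium was given, and the cells were harvested on day 3. The libraries were made on different days, so a difference between libraries and a difference between days cannot be told apart. The series also holds RNA-seq of S2 cells whose labels name no dsRNA, made as inputs for other experiments. They were not compared here, so what the dsRNA or the soaking adds to these levels was not tested.

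S2 is a line established from late Drosophila embryos. Its cells grow in suspension, divide without limit, engulf particles and are regarded as relatives of the plasmatocyte, the phagocytic blood cell or hemocyte of the fly. They take up long dsRNA from the medium and cut it into small interfering RNAs, which has made them a standard host for gene knockdown. A transcriptome of such a line holds the transcripts that any dividing cell needs, the part of a lineage programme that has outlasted culture, and the receptors that decide which signals the cells can answer.

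The libraries held 2865083, 2332156 and 2017317 counts (replicates 1, 2 and 3), each count a read assigned to a single gene. At this depth 3 counts, the upper limit that a count of 0 allows, equal 1.05, 1.29 and 1.49 counts per 1000000 (CPM). Levels of different genes were compared as TPM, counts divided by the summed exon length of the gene and scaled to a sum of 1000000 within a library. The same gene was compared between libraries in CPM scaled by the TMM method, which is less moved by a few abundant genes. Replicate 1 stood apart from the others. Over the 3573 genes with a mean of at least 100 counts, the correlation of log2 levels across genes was 0.94 between replicates 1 and 2, 0.91 between 1 and 3 and 0.98 between 2 and 3, and 136, 299 and 44 genes respectively differed by more than 2-fold. The deviation of replicate 1 moved with gene length. Genes under 1000 bases lay 0.32 above their own mean on the log2 scale in replicate 1, those of 4000 bases and over lay 0.23 below it, and without the ribosomal protein genes these medians were 0.30 and -0.23. What set replicate 1 apart was not tested. The median expressed gene stood at 28.0, 35.6 and 34.7 TPM in the 3 libraries, so a TPM that is lower in replicate 1 is common to most genes, and libraries are ordered below by TMM-scaled CPM.

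Control S2 cells expressed 6748 genes, counted as those at 1 TPM or more in every library. These are 68.3% of the 9876 genes of the table that have a length, and 51.6% reached 10 TPM in every library. The count was 6906, 6804 and 6837 with replicate 1, 2 or 3 left out. Of all 9977 genes listed, 7431 had a count in each library, 1572 in only 1 or 2 of them and 974 in none. Genes that the table does not list have no value here, which is not the same as a level of 0.

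Levels spanned 4 orders of magnitude, and few genes made up most of the RNA. The median expressed gene stood at 33.0 TPM, the middle range ran from 14.5 TPM at the lower quartile to 81.6 TPM at the upper, and 1 gene in 20 exceeded 416 TPM. The 162 expressed genes with a mean over 1000 TPM held 52.6% of all TPM, whereas the 1147 between 1 and 10 TPM held 0.647%. The 100 most abundant genes took 35.5, 29.4 and 30.1% of the counts (31.7 ± 3.34%, SD, n = 3). Replicate 1 was the most concentrated, with 241 genes making up 50% of its counts against 345 and 322 in replicates 2 and 3.

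**Figure D1:**
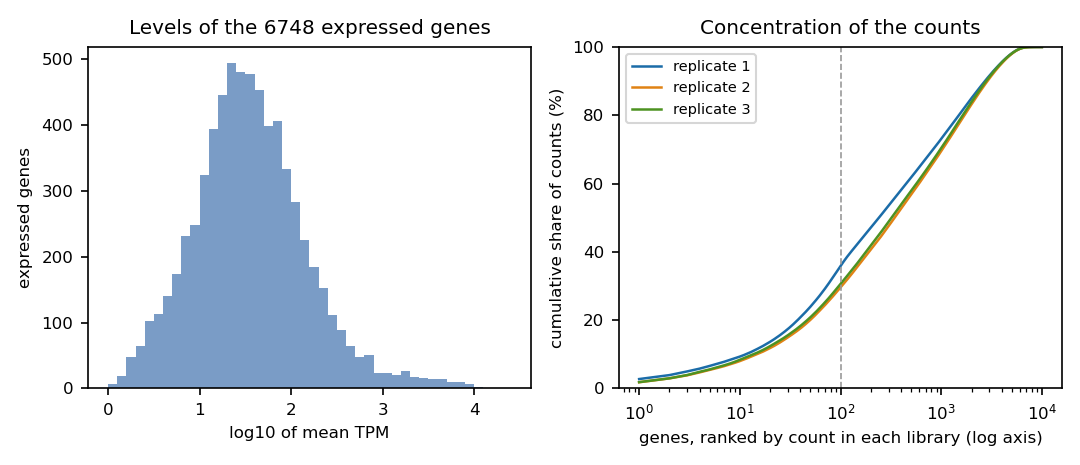
Left, number of the 6748 expressed genes by log10 of the mean TPM of the 3 luciferase dsRNA libraries. Right, cumulative share of counts (%) against genes ranked by count within each library (log axis), with a dashed line at 100 genes; the line of replicate 1 lies above those of replicates 2 and 3, which nearly coincide.

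The top of the list was the machinery of protein synthesis. Of the 20 genes with the highest mean TPM, 16 encode proteins of the cytosolic ribosome, led by RpL41 (20463, 13513 and 14207 TPM), RpL23 (13072, 12084 and 12293 TPM) and RpS27A (10182, 10438 and 11878 TPM). All 16 were above 5000 TPM in every library, and RpL41 was higher in replicate 1 than in the others. RpS27A and RpL40 are ribosomal proteins made as fusions to ubiquitin, so their transcripts also supply ubiquitin. Together, the 90 listed ribosomal protein genes and ribosomal-protein-like genes stood at a sum of 400602, 319807 and 333898 TPM, and 87 of them were expressed. The members below 2 TPM were the second copies RpS5b, RpS10a and RpL37b, together with RpL22-like.

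The other 4 genes of the top 20 were Ef1alpha48D, mt:CoI, smt3 and Act5C. Ef1alpha48D, the elongation factor that brings aminoacyl-tRNA to the ribosome, had 78310, 41786 and 36905 counts, the highest count of any gene in each library and 2.73, 1.79 and 1.83% of the reads. Replicate 1 was again the highest, and the CV of its TMM-scaled CPM was 30.2%. The mitochondrially encoded oxidase subunit mt:CoI stood at 8249, 8086 and 8011 TPM. The SUMO gene smt3 stood at 6161, 8664 and 8995 TPM, and cytoplasmic actin Act5C at 5973, 6726 and 6728 TPM. On the scale made for comparing libraries the CVs of mt:CoI, smt3 and Act5C were 14.8, 8.39 and 6.12%, and mt:CoI was highest in replicate 1.

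The next most abundant genes that are neither ribosomal nor mitochondrial covered cytoskeleton, chaperones, secretion and translation. Nplp2, annotated as a neuropeptide-like precursor, stood at 4821 ± 1161 TPM (SD, n = 3), with 6834, 2976 and 3282 counts, so replicate 1 held the most. The translation factor eIF-5A stood at 4135 TPM, the histone-binding chromatin protein Df31 at 3491, the endoplasmic reticulum chaperone calreticulin (Crc) at 3429, the poly(A)-binding protein pAbp at 3400, profilin (chic) at 3314, 14-3-3epsilon at 2891 and cofilin (tsr) at 2848 TPM. Profilin and cofilin bind actin monomers and filaments respectively, and with Act5C and Act42A they placed 4 actin regulators or actins above 2000 TPM.

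Pairs of genes for nearly the same protein ranged from the use of a single copy to sharing, in pairs named after their values were seen. Ef1alpha48D made up 99.99% of the TPM it shared with Ef1alpha100E, which had 7, 6 and 4 counts. RpS5a made up 99.9% of its pair with RpS5b, and the adenine nucleotide translocase sesB 99.8% of its pair with Ant2. Other pairs were shared. Act5C held 74.2 ± 5.4% against Act42A, betaTub56D 72.2 ± 3.96% against betaTub60D, and RpS14a 78.0 ± 4.74% against RpS14b (SD, n = 3). In others the first-named copy was the minor form. Gapdh1 held 34.2 ± 2.14% against Gapdh2, and His3.3A held 11.5 ± 0.512% against His3.3B, both genes of the replacement histone H3.3. The authors kept only confidently placed reads, which drops those common to near-identical copies such as the RpS14 pair, the actins and the cecropins, so the levels of both copies may be too low and their shares are uncertain.

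Housekeeping genes were expressed nearly in full. All 72 listed mitochondrial ribosomal protein genes were above 10 TPM in every library, against 51.6% of all genes, with a mean of 21.8 TPM for the lowest and 299 for the highest, as were all 12 genes of glycolysis and all 22 genes of a list of cell cycle regulators. Among the glycolytic genes Gapdh2 (442, 425 and 447 TPM) and ImpL3, lactate dehydrogenase (323, 351 and 499 TPM), were the highest, and Pfk, phosphofructokinase (18.6, 12.3 and 13.8 TPM), was the lowest in each library. Of the cell cycle genes, the mitotic phosphatase stg stood at 463, 637 and 506 TPM, the replication inhibitor geminin at 547, 510 and 439 TPM, and the sliding clamp mus209 (PCNA) at 311, 290 and 239 TPM. The kinase Cdk4 and the cyclins CycE and CycB3 were among the lowest of this list, each below 40 TPM in every library.

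Chaperone genes differed widely in level. The constitutive Hsc70-4 stood at 1915, 2110 and 1998 TPM, Hsp83 at 1296, 1888 and 1464 TPM and the endoplasmic reticulum form Hsc70-3 at 1204, 1101 and 1187 TPM. The heat-inducible Hsp70 genes were at the limit of detection: Hsp70Aa had 0, 1 and 0 counts, Hsp70Ab 0, 0 and 3, and Hsp70Ba 0, 0 and 2. These copies are nearly identical in sequence, and reads shared between them were not counted, so their true sum may be higher. Hsp68 was expressed, with 36, 50 and 43 counts (14.2 TPM on average). Hsp22 had no count, while the small heat shock genes Hsp23, Hsp26 and Hsp27 stood at 45.2, 86.3 and 117 TPM on average.

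Markers of plasmatocytes and hemocytes ranged from abundant to undetected. Of 19, all of them listed, 14 (73.7%) were expressed, a share near the 68.3% of all genes, and 12 reached 10 TPM in every library. The GATA factor Serpent (srp), which specifies the blood lineage, had 1319, 1760 and 1628 counts (121, 228 and 247 TPM), and its partner U-shaped (ush) had 358, 419 and 323 counts. The collagen IV chains Cg25C and vkg, main products of hemocytes and fat body, stood at 717 ± 38.2 and 320 ± 22.5 TPM (SD, n = 3), and the matrix protein Glutactin (Glt) at 227 ± 42 TPM. The receptor tyrosine kinase Pvr, needed for hemocyte survival, stood at 99.7, 205 and 231 TPM, with replicate 1 the lowest.

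Other defining markers of mature plasmatocytes were close to the limit of detection. Hemolectin (Hml), the clotting factor whose promoter is a standard hemocyte driver, had 17, 13 and 6 counts and stayed below 1 TPM in every library. The phagocytic receptor NimC1 had 1, 0 and 0 counts, and the embryonic plasmatocyte factors gcm and gcm2 had none. Peroxidasin (Pxn) had 329, 195 and 78 counts, highest in replicate 1, while the scavenger receptor Sr-CI had 5, 21 and 120 counts and eater 17, 8 and 40 counts, highest in replicate 3. The 5 markers that were not expressed thus comprised the factors gcm and gcm2, the secreted Hml, the receptor NimC1 and NimB5 (3, 1 and 2 counts), whereas the engulfment receptors crq (93.5 TPM) and drpr (41.3 TPM) were expressed.

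Markers of the other blood cells were scarce beside the 68.3% of all genes that were expressed. Of 4 crystal cell markers 1 was expressed, the prophenoloxidase gene proPO-A1 (9.41, 10.4 and 3.41 TPM), while the fate factor lozenge (lz) had 0, 1 and 0 counts. Of 4 lamellocyte markers 2 were expressed. These were the prophenoloxidase gene CG42640 (PPO3), at 4.07 TPM, and the filamin gene cher, at 79.3 TPM, which many cell types use, whereas atilla, the usual surface marker of that cell, had 0, 0 and 1 count.

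Tissue markers outside the blood were mostly absent, with named exceptions, whereas 68.3% of all genes were expressed. No marker of fat body was expressed among 4 listed, and none of ovarian follicle cells among 7, and the storage protein genes Lsp1alpha, Lsp1beta and Lsp2, Fbp2 of the fat body and Yp2 and Cp36 of the ovary are not listed. Of 5 listed gut markers only the mannosidase gene CG6206 (LManII) was expressed, of 9 of epidermis and trachea only the transcription factor gene grh, and of 6 of the testis mia and topi, both below 10 TPM. Of the muscle list 4 of 16 (25%) were expressed, or 7 at a mean of 1 TPM. The mesoderm determinant twist (twi) had 588, 561 and 232 counts (132, 178 and 86.0 TPM) and Mef2 89, 166 and 160 counts, whereas the muscle myosin gene Mhc had 1, 0 and 1 and TpnC41C, TpnC73F and up had none. The follicle list held no gene with more than 4 counts in any library.

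Neuronal genes were not uniformly silent. Of 14 pan-neuronal genes 5 (35.7%) were expressed, against 68.3% of all genes. These were Syx1A, a membrane fusion protein, with 150, 339 and 259 counts (19.3, 61.6 and 55.1 TPM), the RNA-binding proteins elav (6.06, 11.7 and 11.2 TPM) and fne (6.56, 7.36 and 9.17 TPM), the active zone protein brp (4.81, 5.83 and 7.02 TPM) and the potassium channel Sh. Other genes of the list were near the limit of detection, with 2, 3 and 3 counts of the vesicle protein Syt1, 1, 3 and 7 of nSyb, 1, 1 and 2 of cac and 6, 13 and 13 of para. Of 5 listed glial genes 2 (40%) were expressed, nrv2 at 66.7 TPM and moody at 17.1 TPM, against 68.3% of all genes. Gs2 had 3, 14 and 1 counts, Eaat1 1, 4 and 1, and wrapper none. The phospholipase C gene norpA, used in vision but also elsewhere, had 177, 247 and 253 counts (20.3 ± 8.0 TPM, SD, n = 3), while the other 7 listed photoreceptor genes had at most 6 counts in any library, among them the rhodopsin ninaE with 1, 3 and 0. The glial factor repo and the photoreceptor genes Arr1, inaC and ninaC are not listed.

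Germline genes formed a graded list. The translational repressor bruno (bru) was the highest of 12 listed, at 22.4, 29.7 and 27.5 TPM, and spn-E, a helicase of the piRNA pathway, followed at 5.16, 11.5 and 10.0 TPM. The Piwi-family gene AGO3 stood at 7.38 TPM, but by the BDGP6 annotation 48 other genes overlap it on its strand and only reads on a single gene were counted, so this level is uncertain. Its relatives piwi and aub had 10, 23 and 19 and 3, 7 and 8 counts. The defining germ cell genes were near 0, with 1, 1 and 0 counts of vas, 0, 0 and 1 of nos and none of pgc.

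**Figure D2:**
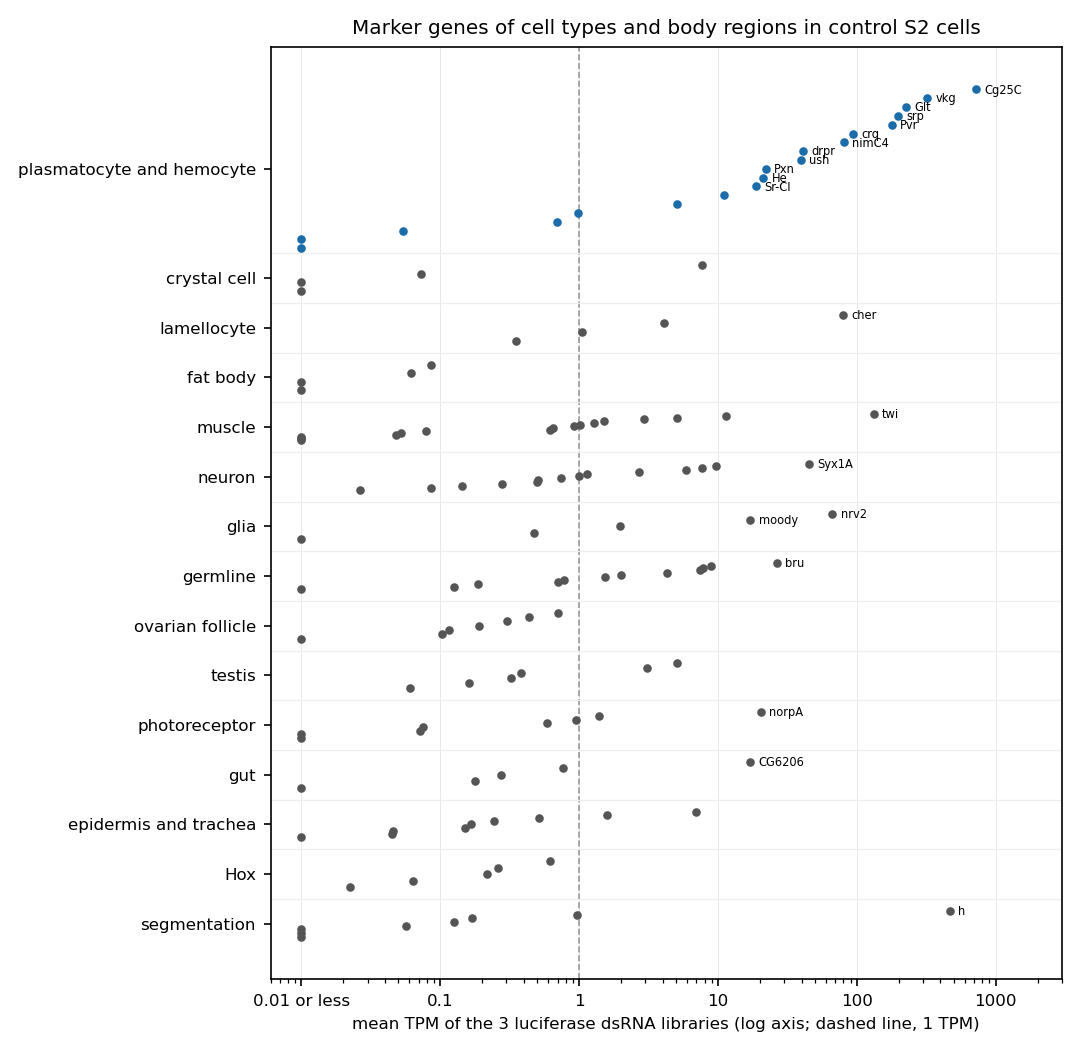
Each point is a listed marker gene, placed by its mean TPM over the 3 luciferase dsRNA libraries (log axis, levels at or below 0.01 TPM drawn at the left edge, dashed line at 1 TPM) in the row of its list, and genes with a mean of 12 TPM or more are named. The plasmatocyte and hemocyte row (blue) extends to Cg25C at 717 TPM, whereas the fat body, ovarian follicle and Hox rows stay left of the line.

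Positional identity genes were off. Of the 5 Hox genes listed, Dfd, Scr, Antp, abd-A and Abd-B, none was expressed, and no library had more than 4 counts of any of them. Ubx, lab and pb are not listed. Of 8 listed gap and pair-rule genes, which pattern the early embryo, only hairy (h) was expressed, against 68.3% of all genes. It was high, with 2110, 1466 and 1175 counts (468 ± 20.4 TPM, SD, n = 3), and it encodes a repressor that many tissues use after segmentation. The next of these genes, giant (gt), had 8, 0 and 1 counts.

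Chemosensory, cuticle and eggshell genes, each made in few tissues, were mostly below the limit. Of 45 listed olfactory, gustatory and ionotropic receptors 7 (15.6%) were expressed, against 68.3% of all genes. At a mean of 1 TPM 13 were, and none reached 10 TPM in every library. The highest was Ir7g (80, 23 and 49 counts). Of 32 cuticle protein genes 5 (15.6%) were expressed, led by Cpr67Fa1 with 37, 10 and 5 counts. Of 7 chorion and vitelline genes 1 (14.3%) was, Cp18, with 4, 1 and 3. Of 59 cytochrome P450 genes 20 (33.9%) were expressed, also below the 68.3% of all genes. Cyp9c1 was the highest of them with 409, 280 and 305 counts (134 TPM).

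Genes of the sex-specific pathway were read as well, since S2 is regarded as a male line. The dosage compensation complex raises transcription of the male X chromosome. Its 5 listed genes were all expressed, against 68.3% of all genes. Levels were 36.0 TPM for msl-2, whose protein is made only in males, 31.5 for mof, 31.0 for msl-1, 28.8 for mle and 28.7 for msl-3. These lie near the 33.0 TPM of the median expressed gene. The noncoding RNAs of the complex, roX1 and roX2, are not listed. Sxl stood at 9.16, 16.4 and 13.7 TPM and tra at 53.5, 40.4 and 59.6 TPM. Both genes are transcribed in both sexes and differ in splicing, which gene counts do not resolve, and the sex effector dsx had 0, 0 and 1 count. Of the Y-linked genes 4 are listed, and none was expressed, against 68.3% of all genes.

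The X chromosome and the autosomes were similar in the share of genes expressed, 70.0% of 1693 X-linked genes against 68.0% of 8089 on chromosomes 2 and 3. The median expressed X-linked gene stood at 0.777, 0.783 and 0.819 of the median autosomal gene (0.793 ± 0.0227, SD, n = 3). Over genes at 10 TPM or more in every library, a limit that removes low genes from both sets, the ratio was 0.958 and is not directly comparable. At the lower limit it differed between classes of gene length without a steady trend. It was 0.705 ± 0.0759 under 1000 bases, 0.908 ± 0.0393 from 1000 to 2000, 0.808 ± 0.0237 from 2000 to 4000 and 0.920 ± 0.0731 at 4000 and over (SD, n = 3). On the small chromosome 4, 51 of 76 genes were expressed.

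Signalling pathways were next ordered by role. Over 13 pathways, 62 of 66 listed intracellular and other components were expressed, against 22 of 31 receptors, those of ecdysone included, and 19 of 31 ligands. The early and target genes of the ecdysone response are in none of these counts. Median levels were 30.2, 9.35 and 11.1 TPM. Over all genes of the table the share expressed was 68.3%, so receptors and ligands were close to that background and the components above it.

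Some receptors were missing from pathways whose other members were present. The EGF receptor gene Egfr had 4, 5 and 4 counts and stayed below 1 TPM in every library. Its ligand spitz (spi) stood at 708, 981 and 889 TPM, the highest of all ligands listed, although 9 genes overlap it on the same strand. The protease rho (37.5 TPM) and the escort protein Star (S, 40.1 TPM), which release the ligand, were present, and so were the downstream Ras85D (232, 367 and 336 TPM), drk, Sos, phl and rl.

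The related receptor Pvr was present together with its ligands. Pvf2 stood at 478, 789 and 626 TPM, and Pvf1 and Pvf3 at 14.4 and 12.6 TPM. All 4 members of this pathway were expressed, against 68.3% of all genes, and 2 of them reached 10 TPM in every library. The FGF receptor heartless (htl), which acts in mesoderm, stood at 22.9, 31.0 and 11.5 TPM with its ligand pyr at 11.5, 33.9 and 23.1 TPM, while the second FGF receptor, breathless (btl), had 1, 0 and 0 counts. The FGF ligand branchless (bnl) stood at 12.3 TPM.

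Notch was expressed with a single ligand. The receptor N stood at 9.88, 17.7 and 20.3 TPM and Serrate (Ser) at 16.7, 15.2 and 15.0 TPM, while Delta (Dl) had 0, 0 and 1 count. The gamma-secretase subunits nct and Psn, which cleave the receptor, stood at 98.6 and 95.5 TPM. The nuclear partner Su(H) was lower, with 50, 81 and 80 counts.

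For Hedgehog, the receptors ptc (8.16 TPM) and smo (15.4 TPM) and the inhibitor Su(fu) (34.3 TPM) were expressed. The transcription factor ci, through which the pathway acts, had 0, 0 and 6 counts, and the ligand hh had 1, 0 and 0. For Wnt, the cytoplasmic part was present, led by armadillo (arm), the beta-catenin of flies (185, 230 and 214 TPM). The main receptors were near the limit, with 6, 1 and 2 counts of fz and 5, 7 and 17 of fz2. The coreceptor arr (5.46 TPM) and fz4 (9.59 TPM) were expressed, and Wnt5 (38.6 TPM) was the only one of 4 listed Wnt ligands that was.

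BMP and activin signalling was expressed at each level, with 12 of 15 listed genes (80.0%) against 68.3% of all genes. The ligands gbb and myo stood at 81.6 and 47.6 TPM, and dpp had 3, 2 and 1 counts. Among the receptors babo stood at 64.7 TPM, sax at 38.9 and put at 30.2, whereas wit had 1, 0 and 0 counts. The Smad genes Med, Smox and Mad stood between 23.7 and 30.0 TPM on average.

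The insulin pathway was led by Thor, the translation repressor 4E-BP, at 1061, 969 and 1006 TPM, the highest of all signalling genes read. Ilp6 was the only insulin-like peptide expressed of 4 listed, with 1181, 1318 and 753 counts (317 ± 83.2 TPM, SD, n = 3). The receptor InR was much lower, at 5.29, 10.7 and 16.2 TPM, lowest in replicate 1. In the ecdysone response, EcR stood at 10.4 TPM and its partner usp at 58.7 TPM, and 11 genes overlap EcR on the same strand. ImpL2, the highest of this list, stood at 671 ± 88.7 TPM, whereas ImpE1, Hr4, Hr46 and Eip78C had means below 1 TPM. Of 12 ecdysone genes with a length 8 (66.7%) were expressed, near the 68.3% of all genes. TNF signalling was represented by the ligand egr (156 TPM) and the receptor wgn (131 TPM), and the Hippo effector yki stood at 110 TPM while the cadherins ft and ds had at most 1 count in any library.

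**Figure D3:**
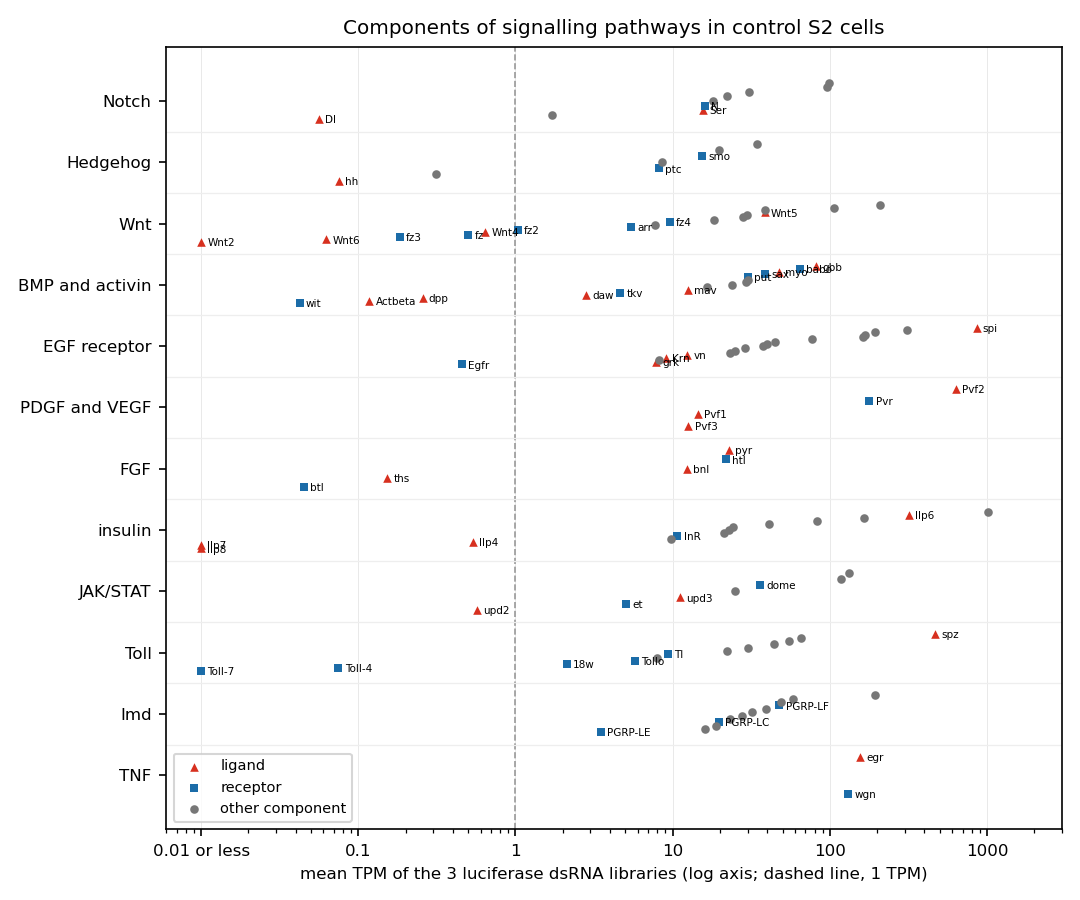
Each point is a listed gene of the pathway named at the left, placed by its mean TPM over the 3 luciferase dsRNA libraries (log axis, levels at or below 0.01 TPM at the left edge, dashed line at 1 TPM). Triangles are ligands, squares receptors and circles other components; Egfr, fz, btl, wit, hh and Dl lie left of the line, while spi, Pvf2 and spz lie at the right.

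Immune signalling was expressed with its recognition parts for microbes. All 12 genes of the Imd pathway were expressed, against 68.3% of all genes, and 11 of them reached 10 TPM, among them the peptidoglycan receptor PGRP-LC (13.9, 19.2 and 26.3 TPM), the adaptor imd (43.1, 52.3 and 50.7 TPM) and the NF-kappaB factor Relish (Rel, 32.7, 40.6 and 44.0 TPM). For JAK/STAT, the receptor dome (35.9 TPM), the kinase hop (24.8 TPM) and Stat92E (118 TPM) were expressed with the ligand upd3 at 11.1 TPM.

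Antimicrobial peptide genes were transcribed without an added microbe. Of 14 listed 12 (85.7%) were expressed, against 68.3% of all genes, and 9 reached 10 TPM in every library. CecA1 was the highest, with 183, 104 and 96 counts (257 ± 29.4 TPM, SD, n = 3), followed by Dro (163, 99 and 83 counts), CecC, CecA2, DptB, CecB and AttB, each above 40 TPM on average. Drosomycin (Drs), an effector mainly of the Toll pathway in fat body, had only 2, 3 and 3 counts and Dpt 3, 3 and 3, which pass 1 TPM because the genes are short but lie at the limit that a count of 0 allows. Def had none. Genes of this list are short and many lie in pairs of similar copies, so their levels rest on few counts and on reads that told the copies apart.

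Genes of the small RNA pathways were expressed, the 3 that serve small interfering RNAs (AGO2, Dcr-2 and r2d2) and the 6 listed for microRNAs. These 9 compare with 68.3% of all genes, and 6 of them reached 10 TPM in every library. AGO2, the Argonaute of small interfering RNAs, was the highest with 1101, 1534 and 1286 counts (143, 280 and 275 TPM), above AGO1, the Argonaute of microRNAs, at 84.4, 120 and 119 TPM. AGO2 was above AGO1 in each library. The corresponding Dicer genes were lower but in the same order, with Dcr-2 at 21.3 ± 5.56 TPM and Dcr-1 at 6.52 ± 1.01 TPM (SD, n = 3), and the Dcr-2 partner r2d2 stood at 45.5 TPM. Whether the treatment moved these levels was not tested.

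Cell death genes ranged from well expressed to nearly absent. The caspase inhibitor th (DIAP1) stood at 77.3, 120 and 116 TPM, and the caspase genes Nc (Dronc), Ice and Dcp-1 at 57.5, 45.1 and 44.0 TPM. Of the death activators, W (hid) had 5, 6 and 3 counts and grim 1, 0 and 0, whereas reaper (rpr) had 11, 23 and 65 counts. Its CV was 97.7%, with replicate 3 the highest, but its mean count was below the 100 set for ranking genes by CV.

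Imp, the gene that the series is about, had 1816, 1836 and 1673 counts. Its level was 71.4, 102 and 108 TPM (93.9 ± 19.8, SD, n = 3), and the CV of its TMM-scaled CPM was 10.3%. The median expressed gene stood at 33.0 TPM, and the median CV of genes with 1000 to 10000 counts was 16.0%. Among the RNA-binding protein genes listed with Imp, yps (691 TPM), Hrb27C (636 TPM), sqd (447 TPM), me31B (263 TPM) and Fmr1 (257 TPM) were all higher in TPM. By counts, me31B (669, 819 and 542) was below Imp in each library and Fmr1 (1486, 1875 and 1774) was near it. The order of these genes against Imp thus depends on the exon lengths used. Syp, listed as CG17838, was far lower than Imp, with 52, 112 and 155 counts (7.42 TPM). Whether the proteins of these genes share granules with Imp was not tested.

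The spread between control libraries exceeded counting error for most genes. Over the 3573 genes with a mean of at least 100 counts, the median CV of TMM-scaled CPM was 16.4%, where counting error alone would give 6.33%. It fell to 8.15% without replicate 1 and was 18.3 and 15.1% without replicates 2 and 3, the CV of 2 libraries in each case. The common biological CV estimated by edgeR, the spread beyond counting error shared by genes, was 22.2%, and it was 14.3% without replicate 1. Spread did not vanish with abundance. The median CV was 16.4% for genes of 100 to 1000 counts, 16.0% for those of 1000 to 10000 and 14.1% for the 13 genes of 10000 and over.

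**Figure D4:**
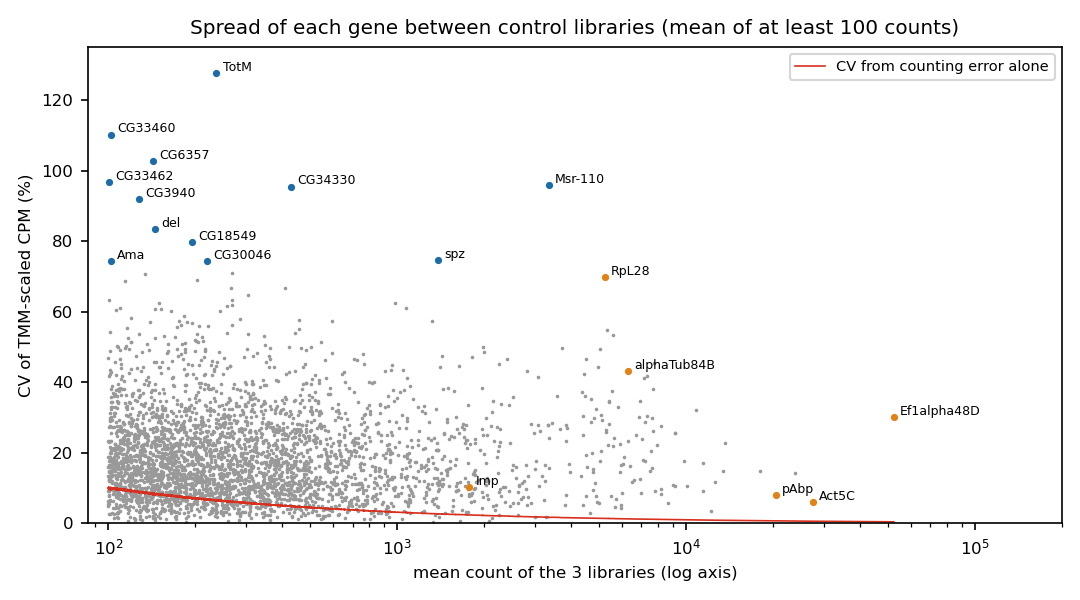
CV of TMM-scaled CPM (%) of each gene over the 3 luciferase dsRNA libraries against its mean count (log axis), for the 3573 genes with a mean of at least 100 counts; the red line is the CV that counting error alone would give. Blue points are the 12 genes of highest CV, led by TotM at 128%, and orange points are other genes of the text, from Act5C at 6.1% to RpL28 at 69.8%.

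A small set of genes varied strongly. Of the 3573 genes, 80 had a CV over 50%, a number that became 30, 254 and 109 with replicate 1, 2 or 3 left out. Replicate 3 held the highest level of 50 of the 80 and replicate 1 of 26, whereas replicate 2 held it for 4. Of the 80, 22 still exceeded 50% without replicate 1.

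The gene of highest CV was TotM, a secreted peptide of the stress-induced Turandot family, with 9, 143 and 558 counts (3.31, 58.7 and 274 TMM-scaled CPM). It was lowest in replicate 1 and highest in replicate 3, with a CV of 128%. The Toll ligand spätzle (spz) had 623, 1226 and 2314 counts, or 229, 504 and 1137 TMM-scaled CPM, a CV of 74.7%. Msr-110 moved over a larger range at high abundance, with 1115, 2411 and 6501 counts, and Ama, a secreted immunoglobulin-domain protein, had 61, 73 and 172. The remaining genes of the 12 with highest CV were CG33460, CG6357, CG33462, CG34330, CG3940, del, CG18549 and CG30046. All but CG34330 were lowest in replicate 1 and highest in replicate 3, and CG34330 had 953, 141 and 190 counts, highest in replicate 1.

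The order of libraries seen for spz recurred in some other Toll pathway genes. The receptor Toll (Tl) had 43, 57 and 90 counts, the adaptor Myd88 197, 243 and 348, and the NF-kappaB factors dl and Dif 82, 214 and 253 and 17, 58 and 94 counts. All were lowest in replicate 1 and highest in replicate 3 when scaled. The inhibitor cact (341, 308 and 269 counts) and the kinase partner tub (136, 131 and 106 counts) varied little, with CVs of 2.84 and 3.68%. The receptors Tollo (70, 64 and 44 counts) and 18w (9, 24 and 13 counts) were highest in replicate 2. Over the 5 members with a mean of at least 100 counts, spz and dl among them, the median deviation on the log2 scale was -0.56 in replicate 1 and 0.67 in replicate 3. Replicate 3 was the highest for 4 of these 5, for all 6 such genes of the ecdysone response and for 1262 of all 3573 genes. Genes of 4000 bases and over had medians of -0.23 and 0.16, and the part of gene length in the Toll values was not tested. The JAK/STAT target and inhibitor Socs36E had the same order, with 360, 557 and 871 counts.

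Replicate 1 in turn was the highest library for most genes of the ribosome, the proteasome and glycolysis. It held the highest TMM-scaled level of 82 of 85 ribosomal protein genes with enough counts, 25 of 30 mitochondrial ribosomal protein genes, 24 of 28 proteasome genes and 8 of 11 glycolytic genes, against 1432 of all 3573 genes. Translation initiation and elongation factors were more evenly divided, with 13 of 26 highest in replicate 1. The largest gap among ribosomal genes was at RpL28, with 10139, 3260 and 2308 counts, a gene that 5 others overlap on the same strand. Ribosomal protein genes are mostly short, and the length pattern of replicate 1 given above moves with them. The cytosolic ones had a median log2 deviation of 0.42 in replicate 1, against 0.32 for all genes under 1000 bases. The part of gene length in the difference of any of these groups was not tested.

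**Figure D5:**
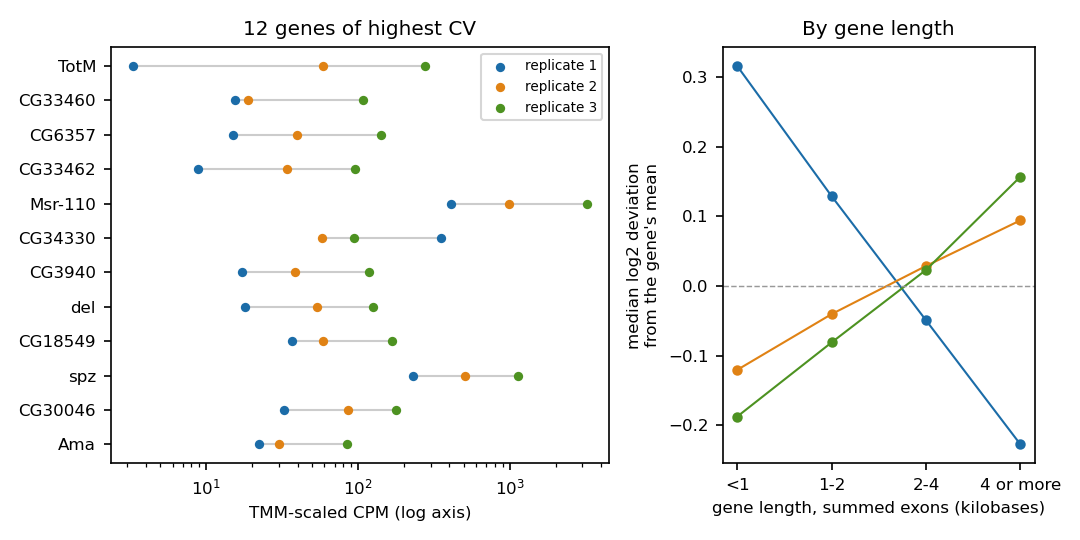
Left, TMM-scaled CPM (log axis) of the 12 genes of highest CV in each luciferase dsRNA library, joined by a grey line; 11 of the 12 are lowest in replicate 1 and highest in replicate 3, and CG34330 is the exception. Right, median log2 deviation of each library from a gene's own mean, by class of gene length (summed exons, kilobases), over genes with a mean of at least 100 counts; replicate 1 runs from 0.32 to -0.23 and replicates 2 and 3 run the other way.

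Genes used as references for quantitative PCR differed in how steady they were. Act5C had a CV of 6.12%, where counting error gives 0.609%, and SdhA of 5.76%, close to the 5.16% that counting error gives. RpII140 (266, 241 and 193 counts) had a CV of 2.21%, below the 6.60% that counting error gives at its depth, so it cannot be ranked against them. The commonly used RpL32 had 8761, 4056 and 3817 counts and a CV of 37.4%, alphaTub84B 10216, 5298 and 3379 counts and 43.1%, and Gapdh1 23.7%, each highest in replicate 1. Among the other listed references, eIF-4a had a CV of 14.6%, Tbp of 16.6% (13.4% by counting error) and Su(Tpl), highest in replicate 3, of 23.2%. The 8 genes of lowest CV were CG4747, CG8735, CG1486, CG11007, Su(var)205, CG6891, DppIII and CG5068. Their CVs, all below 1%, were under what counting error gives for their depth, as for 443 of the 3573 genes, so their rank among the steady genes carries no information. Su(var)205, the heterochromatin protein HP1a, had 2360, 2124 and 1750 counts.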

How the data were processed

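RNA-seq of S2 cells treated with luciferase dsRNA (3 libraries) was analysed. The iCLIP, PAR-iCLIP, RIP-seq, input RNA-seq and imp dsRNA samples of the series were not compared here. Poly(A) RNA was fragmented, reverse transcribed from random primers and amplified in 20 PCR cycles. The labels call the material cytoplasmic mRNA, while the methods describe enrichment from total RNA.

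The authors processed reads with CASAVA 1.8.2 and aligned them by BWA-PSSM against fly (dm3) and yeast sequence, yeast RNA having been spiked in. Only confident alignments touching 1 gene, in its sense orientation, were counted, with 1 representative transcript per gene, and the authors deposited these counts without normalization. No version of BWA-PSSM or DESeq is given in the sources used here, and it is not stated for these libraries whether PCR duplicates were collapsed. The deposited table of the authors' own DESeq comparison holds group means as signal, the ratio and log2 fold change of the groups and p-values, and served only to give gene symbols. It was not otherwise used.

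Of the rows, 9977 are genes, and another 1 without a gene name, at 0 counts (0%), was left out. Exon lengths came from the BDGP6 annotation, a later build than dm3, so no coordinates are given. Of the identifiers, 9546 were found there and 330 were followed by symbol, which gave 9876 genes with a length and 99.6% of the counts. Other genes have no TPM. Overlaps on the same strand, found for 1844 genes, came from the same annotation. CV is the SD over the mean of TMM-scaled CPM. The counting CV is the Poisson value at a gene's mean. Log2 deviations used a pseudocount of 1. With 1 group there is no contrast and no test, and the spread over 3 libraries, which cover counting error, culture and day, is given instead. PCR reads are not independent molecules, so limits from counts cover counting error only. Analyses ran in R 4.3.3 with edgeR 4.0.16 (filterByExpr, estimateDisp) and DESeq2 1.42.0, and in Python 3.11.15 with NumPy 2.4.6, pandas 2.3.3 and matplotlib 3.10.9. The spread calculation was tested on simulated data.

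Named genes are the 20 with the highest mean TPM, the 12 with the highest and 8 with the lowest CV among genes with a mean of at least 100 counts, members of the lists that reach 10 TPM or define a list, and Imp. Others, such as the next abundant genes, the gene pairs and single receptors, were added after their values were seen. The members and lists were chosen with earlier results of these data known. Alternatives tried were other limits for an expressed gene, the longest transcript as length, DESeq2 size factors, library totals, other count filters and each library left out. Those for the count of variable genes, for the X chromosome and for lists without replicate 1 were chosen after seeing the data.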

Additional observations from a re-analysis of the deposited data

How the results depend on the processing

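The count of expressed genes stayed within 1.5 times of 6748 under every limit and length tried, from 6274 at 10 counts in each library to 7113 at a mean of 1 TPM. The share of the 100 most abundant genes was 44.2% when taken of TPM, and 29.8 to 32.8% with a library left out. The median CV was 24.9% over all genes with a count, most of them sparse, and 8.15 to 18.3% with a library left out. The common biological CV was 14.7% as DESeq2's median gene-wise value over all 3 libraries, and 14.3 to 28.1% by edgeR with a library left out. The median CV and the edgeR value were both lowest without replicate 1. Genes with a CV over 50% numbered 30 to 254 with a library left out. The ratio of X to autosomes was 0.958 at 10 TPM. Of 56 list counts, 55 stayed within 1.5 times without replicate 1 and 51 at a mean of 1 TPM, and 38 did so at 10 TPM. Those that moved at a mean of 1 TPM were muscle (4 to 7), olfactory and gustatory receptors (7 to 13), epidermis and trachea (1 to 2), photoreceptor (1 to 2) and Y-linked genes (0 to 1). For 41 named genes the mean level by library totals lay within 1 SD of the TMM value. No paired analysis was possible because the 3 libraries form a single group. Depth limits genes below about 1 TPM, and 3 libraries give an SD of low precision.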
